A study of Sus scrofa domesticus with 16 samples.

Results

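The genes described here encode the machinery that starts and extends protein synthesis and charges tRNAs: the eukaryotic initiation factors (symbols beginning with EIF), the elongation factors (EEF), the aminoacyl-tRNA synthetases (a letter for the amino acid followed by ARS, or by ARS2 for most mitochondrial enzymes), the glutamyl-prolyl-tRNA synthetase EPRS, the poly(A)-binding protein PABPC1 and the termination factor ETF1. Members were taken by symbol from the array's annotation, each gene represented by its brightest probe set, the one with the highest mean log2 signal over all arrays. This gave 62 genes of the 6765 that had a probe set with a single symbol, through 94 probe sets, and 60 of the 62 passed the filter on low signal. ETF1 itself was not analysed here, nor were EEF2 and EEF1A2.

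The adrenal glands came from 16 pigs (Sus scrofa domesticus) that had been mixed with unfamiliar pigs, a social challenge. The 8 high stress animals are labelled as a mixing treatment of high aggressiveness and the 8 low stress animals as one of low aggressiveness; by the series' design the groups differed in aggressive behaviour and plasma cortisol, and both had been mixed. Total RNA of the gland was hybridised to the Affymetrix porcine genome array, with 1 array per animal, and the values are log2 of the deposited signal. The labels give no age, sex or breed, and do not say whether cortex and medulla were taken in fixed proportion.

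In translation initiation, eIF2 carries the initiator tRNA to the small ribosomal subunit, eIF3 serves as a scaffold there, and the eIF4 factors bring the mRNA by its cap. Phosphorylation of the alpha subunit of eIF2 by its kinases lowers general translation in many kinds of stress and favours the translation of the transcription factor ATF4, whose known targets in mammals include several synthetase genes. In the adrenal cortex, corticotropin raises the synthesis of short-lived proteins such as STAR, which steroid output needs, and this makes the translation machinery of interest in that gland.

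The arrays fell into a pair of sets that the labels do not mention. The dap control, a bacterial transcript added to the sample, averaged a signal of 3588 (3261 to 4826) in one set of 8 arrays, called the high-spike set here, against 605 (516 to 721) in the other 8, called the low-spike set. Both sets were made up of 4 animals from each stress group, so stress and set could be told apart, and each stress result was also computed within the sets. Array medians ran from 116 to 147 in signal. Some markers of both parts of the gland were bright. Of 10 cortex markers 8 were measured, among them STAR at 14.85 and CYP11A1 at 14.41, but MC2R at 8.47. Of 10 chromaffin cell markers 6 were measured, among them PNMT at 13.60 and CHGB at 14.30. CHGA read 10.13, and NPY, at 4.39, lay under the filter.

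The translation genes gave bright signals in adrenal tissue. Their median level was 10.92 log2, against 8.85 for all 6765 genes, and 52 of the 62 lay above that overall median, with 19 above its 90th percentile. Signal depends on the probes as well as on the transcript, so an order of signals between genes is not an order of mRNA levels. The brightest were EEF1B2 at 14.41, EIF1 at 14.34, PABPC1 at 14.29, EEF1G at 14.20, EIF4A2 at 13.91, EEF1D at 13.39, EIF4G2 at 13.32 and EIF3K at 13.19. They stand for elongation (EEF1B2, EEF1D and EEF1G, subunits of the factor that recharges eEF1A with GTP), start-codon selection (EIF1), the poly(A) tail (PABPC1), the RNA helicase that unwinds the mRNA leader (EIF4A2), a relative of the eIF4G scaffold (EIF4G2) and a subunit of eIF3 (EIF3K).

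By role, the median level was 13.08 for the 7 genes of elongation, 12.02 for the 9 eIF3 subunits, 11.96 for the 12 cap and scanning factors, 10.81 for the 13 cytosolic synthetases and 8.39 for the 6 mitochondrial synthetases. EIF4A3 is counted with the cap and scanning factors here and below by its symbol only. The elongation group is EEF1A1, EEF1B2, EEF1D, EEF1G, EIF5A, EEF1E1 and EEF1AKMT1, with EEF1E1 and EEF1AKMT1 counted by their symbols only. The genes below the filter of 6.15 log2 were NARS2, the mitochondrial asparaginyl-tRNA synthetase, at 3.30, and EIF1AY at 5.85. Just above the filter lay VARS2, the mitochondrial valyl-tRNA synthetase, at 7.12. The SD over the 16 arrays had a median of 0.229 log2 over the members, against 0.279 over all genes tested.

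**Figure D1:**
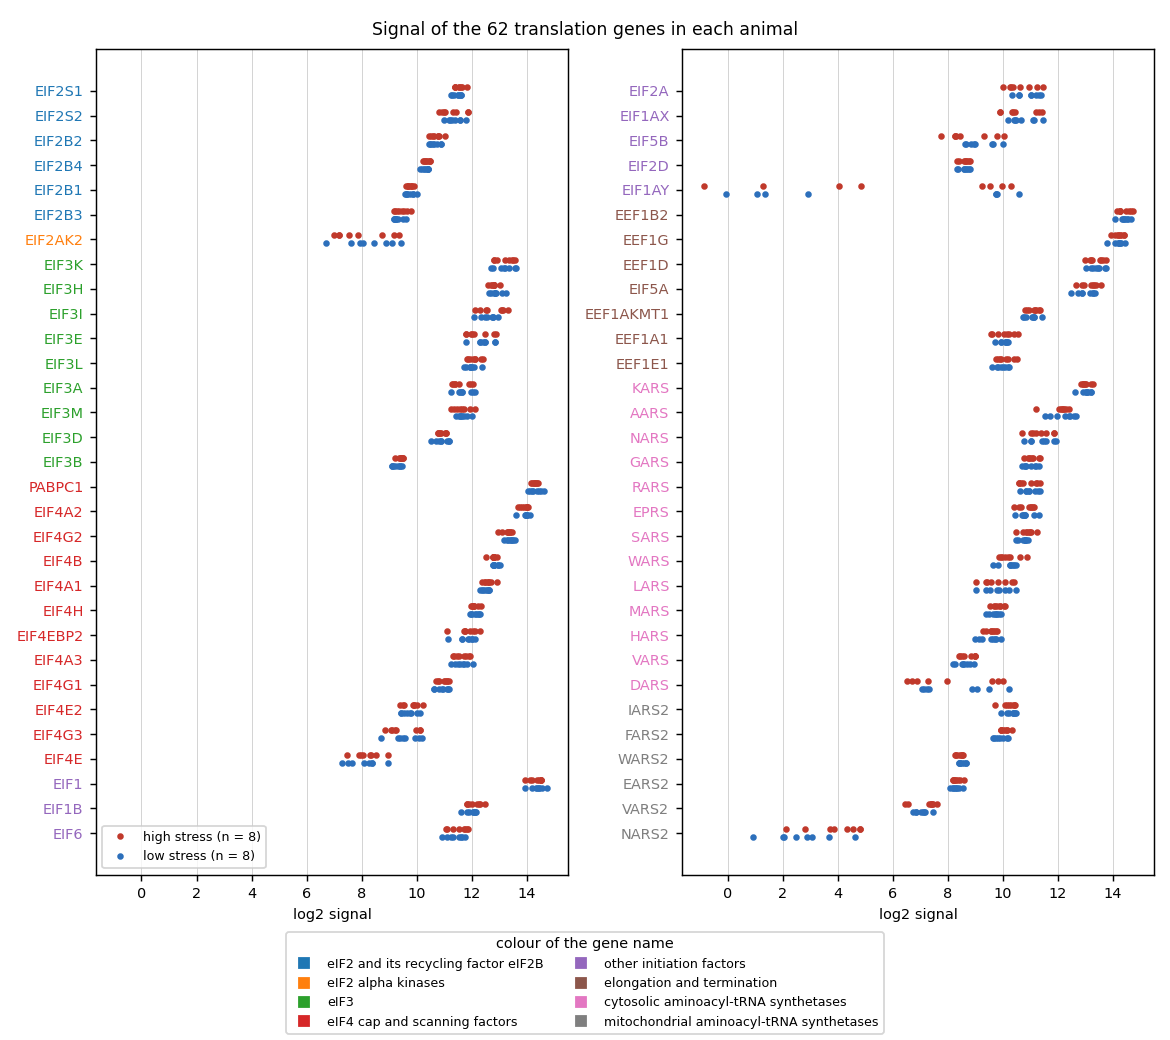
Log2 signal of each of the 62 translation genes (one row per gene) in each of the 16 animals; red points are the 8 high stress animals, drawn above the 8 low stress animals in blue, and the colour of a gene's name gives its role. Of the genes 43 span less than 1 log2 unit and the colours overlap in every row, while DARS, EIF2AK2 and EIF5B spread widely and EIF1AY falls into a high and a low cluster within both stress groups.

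EEF1A1, the elongation factor that delivers charged tRNAs to the ribosome, was covered by ordinary probe sets of moderate signal and by the array's own quality controls. Its brightest ordinary probe set read 9.55 to 10.55 (median 10.08) in high stress animals and 9.70 to 10.17 (median 10.09) in low stress animals. The control probe sets for elongation factor 1 alpha lie in the 3′ part, the middle and the 5′ part of the transcript. They averaged 14.86, 15.00 and 14.80 log2 in high stress animals, against 14.89, 15.01 and 14.88 in low stress animals. The middle control had signals of 27028 to 38141 (median 32176) in high stress animals and 23969 to 38891 (median 34789) in low stress animals, so that the groups overlapped almost fully. The differences through the 3 controls were -0.03, -0.01 and -0.08, and that of the ordinary probe set was 0.02 (SE 0.14).

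No translation gene passed the test between high and low stress animals. With limma and adjustment over all 14399 probe sets, 0 of the 60 members tested were called at an adjusted p under 0.05 (background 0%, 0 of 14399 probe sets), and the smallest adjusted p of a member was 0.999 (unadjusted 0.106). At an unadjusted p under 0.05 the count was 0 of 60, against 3.01% of the 5455 genes tested (164 genes). Other settings gave 1 member with no filter (background 3.12%), 1 with median centring (background 3.28%), 1 without low stress replicate 4 (background 3.46%), 2 with the spike-in set as a block and quantile normalization (background 6.01%) and 4 with that block and median centring (background 8.6%). The members' log2 differences, high minus low stress, ran from -0.39 to 0.19 with a median of 0.02, against a median of 0.00 over all genes. Of the members 33 were higher and 27 lower in high stress animals, which is 55.0% higher, against 50.2% over all genes. In no member were the groups free of overlap (background 0.0367%, 2 genes).

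The intervals say how large a difference could have gone unseen. The 95% confidence interval of the difference lay within ±0.5 log2, that is 1.41-fold, for 48 of the 60 members (80.0%, against 69.5% of all genes), and within ±1 log2 for 57. The exceptions to the wider bound were DARS, EIF2AK2 and EIF5B, the genes with the largest spread between arrays. Within ±0.25 log2 lay the intervals of 10 members. All these counts come from the fit without the spike-in set. With the set as a block the intervals were -0.75 to 0.34 for DARS and -0.82 to 0.28 for EIF2AK2, inside ±1 log2. In whole-gland RNA a lower share of a cell type and less mRNA per cell cannot be told apart. Cortex markers averaged 13.01 (12.83 to 13.11) in high stress animals and 12.99 (12.65 to 13.15) in low stress animals, chromaffin markers 11.19 (10.66 to 11.71) against 11.04 (10.61 to 11.39), and the 4 of 5 smooth muscle markers measured 10.39 (9.86 to 11.01) against 10.03 (9.20 to 10.94). The 3 of 5 adipocyte markers measured averaged 5.62 (4.32 to 6.58) in high stress animals and 6.398 (5.88 to 6.93) in low stress animals, around the filter. Of the chromaffin markers GAL differed by 0.67 (not called), while PNMT, CHGA, CHGB and DDC differed by 0.04, 0.03, -0.005 and 0.03. NPY lay under the filter. Of the adipocyte markers ADIPOQ (4.23) lay under the filter, and FABP4 and LEP differed by -0.07 and -0.32. No marker was at 0, and the part of these differences in the values of the members was not tested.

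**Figure D2:**
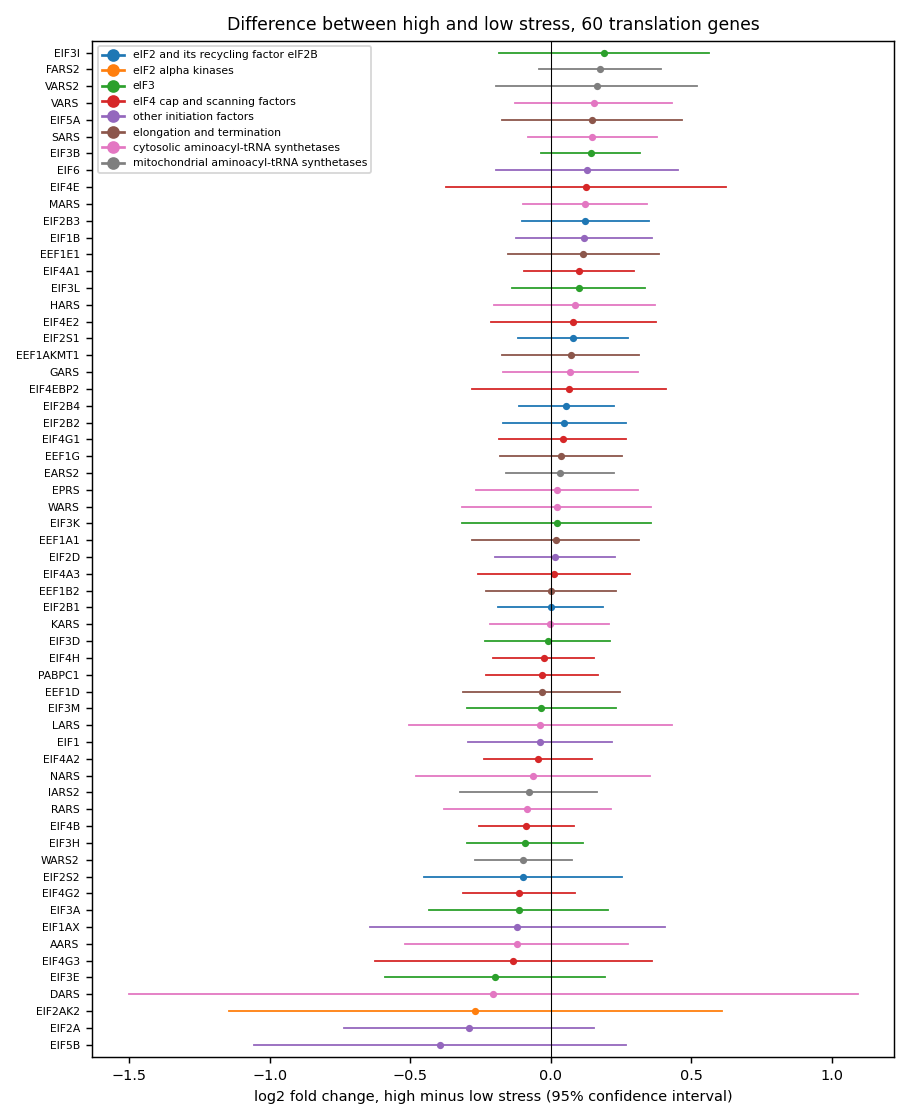
Log2 fold change, high minus low stress (horizontal axis, log2 units), of the 60 translation genes that passed the filter, sorted by size; points are limma estimates from 8 animals per group, bars are 95% confidence intervals, and colours give the role. All 60 intervals include 0, and those of DARS, EIF2AK2 and EIF5B are the only ones to pass ±1.

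Among the initiation factors that choose the start codon, eIF2 was measured through 2 of its 3 subunits. EIF2S1, the alpha subunit that the stress kinases phosphorylate, read 11.37 to 11.82 (median 11.52) in high stress animals and 11.26 to 11.61 (median 11.48) in low stress animals. The groups shared most of their range, and the difference was 0.08 with an interval of -0.12 to 0.28. EIF2S2, the beta subunit, read 10.80 to 11.86 (median 11.16) in high stress animals and 11.00 to 11.78 (median 11.32) in low stress animals. The high stress group enclosed the low stress group on both sides, and the difference was -0.10 (-0.45 to 0.25).

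EIF2AK2, the kinase of eIF2 alpha that double-stranded RNA activates, was the only member of its family measured. It read 6.998 to 9.36 (median 7.70) in high stress animals and 6.72 to 9.44 (median 8.25) in low stress animals. The difference was -0.27 with an interval as wide as -1.15 to 0.61. With the spike-in set as a block the interval was -0.82 to 0.28, which still held both a fall and a small rise. Of eIF2B, which exchanges GDP for GTP on eIF2, 4 subunits were measured. The one with the smallest p was EIF2B3, at 9.18 to 9.77 (median 9.39) in high stress animals and 9.15 to 9.59 (median 9.25) in low stress animals, a difference of 0.12 (SE 0.11). Over the 6 genes of eIF2 and eIF2B, 4 were higher and 2 lower, with a median difference of 0.05.

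The member with the smallest p was EIF3B, a core subunit of eIF3. It read 9.22 to 9.50 (median 9.42) in high stress animals and 9.11 to 9.46 (median 9.27) in low stress animals. Of the high stress animals 7 of 8 exceeded the mean of the low stress group, though the ranges still overlapped. The difference was 0.14 (SE 0.08, adjusted p = 0.999), and it was 0.17 within the high-spike set and 0.11 within the low-spike set.

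EIF3E, another eIF3 subunit, ran the other way, at 11.79 to 12.87 (median 12.02) in high stress animals against 11.80 to 12.84 (median 12.43) in low stress animals. Its ranges were almost the same and its difference was -0.20 (SE 0.19). The bright subunit EIF3K read 12.79 to 13.56 (median 13.28) in high stress animals and 12.69 to 13.61 (median 13.19) in low stress animals, a difference of 0.02. The largest positive difference of any member, chosen here after its value was seen, was that of EIF3I, at 0.19 (SE 0.18). Over the 9 eIF3 subunits 4 were higher and 5 lower, with a median of -0.01.

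The cap-binding step centres on EIF4E, which holds the cap, and on the 4E-binding proteins, which block it until the mTOR kinase phosphorylates them. EIF4E read 7.45 to 8.97 (median 8.16) in high stress animals and 7.27 to 8.96 (median 8.17) in low stress animals. The ranges coincided and the difference was 0.13 (-0.37 to 0.62). EIF4E2, a cap-binding relative linked to translational repression, had a difference of 0.08 (SE 0.14) between 9.37 to 10.23 (median 9.88) in high stress animals and 9.41 to 10.12 (median 9.70) in low stress animals. EIF4EBP2, the 4E-binding protein measured, read 11.10 to 12.30 (median 11.85) in high stress animals and 11.12 to 12.10 (median 11.87) in low stress animals, with a difference of 0.06 (-0.28 to 0.41).

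The scaffold relative EIF4G2 read 12.96 to 13.47 (median 13.29) in high stress animals and 13.16 to 13.58 (median 13.40) in low stress animals, a difference of -0.11 (SE 0.09), and only 2 of 8 exceeded the mean of the low stress group. EIF4B, which assists the helicase, read 12.52 to 12.91 (median 12.79) in high stress animals and 12.75 to 13.02 (median 12.81) in low stress animals. The difference was -0.09 (SE 0.08), and 1 of 8 exceeded the mean of the low stress group. The helicase EIF4A2 and PABPC1 had differences of -0.05 (SE 0.09) and -0.03 (SE 0.09). The 12 cap and scanning factors split evenly, with 6 higher and 6 lower and a median of -0.01.

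The other initiation factors held the largest negative values. EIF5B, the GTPase that joins the ribosomal subunits, read 7.77 to 10.03 (median 8.38) in high stress animals and 8.63 to 9.996 (median 8.97) in low stress animals. Some high stress animals were lower than any low stress animal, yet the upper ends of the ranges met, and the difference of -0.39 (SE 0.31) had an interval that reached 0.27. EIF2A, a factor able to deliver initiator tRNA without eIF2, read 10.01 to 11.45 (median 10.49) in high stress animals and 10.35 to 11.38 (median 11.04) in low stress animals.

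The EIF2A difference was -0.29 (SE 0.21). With the spike-in set as a block its unadjusted p was 0.0332 with an adjusted p of 0.755, the only member at an unadjusted p under 0.05 in that fit (background 6.2% of genes). It had the same sign in both sets, -0.17 in the high-spike and -0.42 in the low-spike set. The second probe set of EIF2A gave 0.45, the opposite sign, so the gene's direction rests on which probe set is read. EIF1, which helps the ribosome reject wrong start codons, had a difference of -0.04 (SE 0.12). Of the 7 tested, 3 were higher and 4 lower.

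The 7 genes of the elongation group had differences between -0.03 and 0.15. EEF1B2 read 14.14 to 14.72 (median 14.36) in high stress animals and 14.07 to 14.64 (median 14.41) in low stress animals, a difference of 0.00 with an interval of -0.23 to 0.23. EEF1G read 13.92 to 14.40 (median 14.22) in high stress animals and 13.77 to 14.43 (median 14.21) in low stress animals, and its difference was 0.03 (SE 0.10). EEF1D read 12.99 to 13.73 (median 13.38) in high stress animals and 13.01 to 13.74 (median 13.42) in low stress animals, and its difference was -0.03 (SE 0.13). In all 3 exchange-factor subunits the ranges of the stress groups were nearly the same. EEF1E1, a small protein of the multisynthetase complex despite its name, had a difference of 0.11 (SE 0.13). With EIF5A and the methyltransferase EEF1AKMT1, which the symbol rule also takes in, 6 of 7 were higher and 1 lower, with a median of 0.03.

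Of the cytosolic synthetases 7 were higher and 6 lower in high stress animals, with a median of 0.02. Those with the smallest p were SARS, MARS and VARS, which charge the tRNAs for serine, methionine and valine. SARS read 10.46 to 11.25 (median 10.90) in high stress animals and 10.48 to 10.90 (median 10.80) in low stress animals, a difference of 0.15 (SE 0.11). MARS read 9.53 to 10.06 (median 9.83) in high stress animals and 9.40 to 9.94 (median 9.73) in low stress animals, a difference of 0.12 (SE 0.10). VARS read 8.40 to 9.002 (median 8.72) in high stress animals and 8.19 to 8.95 (median 8.56) in low stress animals, a difference of 0.15 (SE 0.13). The groups overlapped in all 3.

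DARS, the aspartyl-tRNA synthetase, had the widest interval of all members in the fit without the spike-in set, -1.50 to 1.09 around a difference of -0.20. With the set as a block the DARS interval was -0.75 to 0.34. Its values ran from 6.53 to 9.99 (median 7.62) in high stress animals and from 7.07 to 10.21 (median 8.10) in low stress animals, and this spread followed the spike-in sets, as given further on.

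Among the mitochondrial synthetases FARS2, the phenylalanyl enzyme, came closest to a difference. It read 9.92 to 10.33 (median 10.05) in high stress animals and 9.63 to 10.20 (median 9.86) in low stress animals. All 8 high stress animals exceeded the mean of the low stress group, but the ranges overlapped, and the difference was 0.17 (SE 0.10). WARS2, the tryptophanyl enzyme, read 8.28 to 8.57 (median 8.45) in high stress animals and 8.42 to 8.67 (median 8.47) in low stress animals, a difference of -0.10 (SE 0.08). NARS2 was too dim for the filter, at 3.88 ± 0.98 in high stress animals and 2.72 ± 1.13 in low stress animals (SD, n = 8 each). In a fit with no filter it had a difference of 1.16 and an unadjusted p of 0.0346, the only member under 0.05 there, with an adjusted p of 0.999.

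For no member did the stress difference pass a test of its own change between the spike-in sets. That interaction test called 0 members (background 0%, 0 of 14399 probe sets) and had 0 members at an unadjusted p under 0.05 (background 2.29% of genes), with a smallest p of 0.0997. The sign was the same in both sets for 38 of 60 members, 63.3%, against 58.2% of all genes. Within the low-spike set 5 members had an unadjusted p under 0.05, which were VARS2 at 0.39, EIF3I at 0.35, EIF5B at -0.59, EIF2A at -0.42 and EIF2S2 at -0.27 (8.33% of members, against 6.45% of genes). None was called, the lowest adjusted p being 0.637, and within the high-spike set no member had an unadjusted p under 0.05 (2.27% of genes).

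The other probe sets of the same genes gave no call either. Of 89 member probe sets that passed the filter 2 had an unadjusted p under 0.05, a second probe set of EIF4E2 at -0.26 and a second of EIF5A at 0.22, where 3.19% of all probe sets did. Of the 21 genes with several tested probe sets, 9 had differences of opposite sign between them.

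Genes around the translation machinery that the symbol rule leaves out were read from lists of their own, and 0 of them were called. Of 27 other translation genes 11 were measured, with 6 higher and 5 lower in high stress animals. The smallest p belonged to AIMP1, a scaffold of the multisynthetase complex, at -0.22 (SE 0.12), DHPS, which starts the hypusine modification of eIF5A, at 0.22 (SE 0.13), and MKNK1, a kinase of eIF4E, at 0.13 (SE 0.10). With the spike-in set as a block, AIMP1, DHPS and DHX29 (-0.39) had unadjusted limma p of 0.0321, 0.0356 and 0.0369 (background 6.2% of genes). Their adjusted p were 0.750, 0.759 and 0.765. Of 9 mitochondrial translation factors 6 were measured, with 4 higher and 2 lower, and their smallest p belonged to GFM1 at -0.15, MTRF1 at 0.12 and TUFM at 0.07.

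The integrated stress response is the program downstream of eIF2 alpha phosphorylation. Of 16 listed genes 10 were tested, with 5 higher and 5 lower. ATF4, its main transcription factor, averaged 11.96 ± 0.25 in high stress animals and 11.71 ± 0.25 in low stress animals (SD, n = 8 each), a difference of 0.25 (SE 0.13) that was not called. With the spike-in set as a block the unadjusted limma p of ATF4 was 0.0344, with an adjusted p of 0.756 (background 6.2% of genes). PSAT1, an enzyme of serine synthesis, differed by 0.26 (SE 0.21) and PPP1R15A, which recruits the phosphatase of eIF2 alpha, by 0.20 (SE 0.19). The 8 measured synthetases reported as ATF4 targets split into 5 higher and 3 lower, with a median difference of 0.02.

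Many translation genes differed between the spike-in sets, as did many other genes. In the high-spike set 28 of the 60 members differed from the low-spike set at an adjusted p under 0.05 in a limma fit with stress as a covariate (46.7%, background 40.6%, 2216 of 5455 genes). Of these 14 were higher (background 16.4%) and 14 lower (background 24.2%) in the high-spike set. The members' median difference was -0.09, against -0.11 for all genes. The members' share lay near that of all genes and is no result about translation genes in particular. With quantile normalization 16 were higher (background 15%) and 13 lower (background 26.7%). With each array centred on its median 11 were higher (background 11.8%) and 26 lower (background 39.5%), as centring moved the median of all genes to -0.25. No called member changed sign under either scaling. EEF1B2, EIF1, EIF4E and EIF5A were no longer called with quantile normalization, nor were EIF4E, EIF4G2 and LARS with centring.

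The arrays of the sets also differed in other measured ways. The ratio of 3′ to 5′ signal of the actin control was 6.87 ± 1.20 in the high-spike set and 14.01 ± 3.71 in the low-spike set, and that of GAPDH was 1.52 ± 0.10 and 1.39 ± 0.07 (SD, n = 8 each). The 4 of 5 smooth muscle markers measured averaged 9.89 (9.20 to 10.49) in the high-spike set and 10.53 (10.11 to 11.01) in the low-spike set, and all 4 were called. The 3 of 6 kidney and liver markers measured averaged 7.26 (6.56 to 8.96) in the high-spike set and 6.42 (5.15 to 7.63) in the low-spike set. Of these ALB (5.36) and TTR (4.12) lay under the filter and were not tested, and APOA1, the one called, was lower in the high-spike set (-0.41), against the direction of the mean. Cortex markers averaged 12.92 (12.65 to 13.13) in the high-spike set and 13.08 (12.96 to 13.15) in the low-spike set, and 3 were called, CYP17A1 at -0.56 and NR5A1 at -0.50 but MC2R at 0.69. Fibroblast markers averaged 8.45 (8.24 to 8.78) in the high-spike set and 8.08 (7.53 to 8.38) in the low-spike set, with LUM called at 0.80. Chromaffin markers averaged 10.99 (10.66 to 11.40) in the high-spike set and 11.23 (10.61 to 11.71) in the low-spike set, with CHGA called at -0.68. The part of these in the members' differences was not tested.

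DARS moved furthest. It read 7.95 to 10.21 (median 9.55) in the high-spike set and 6.53 to 7.32 (median 7.10) in the low-spike set, with no overlap. The difference was 2.35 (SE 0.26, adjusted p = 1.3e-05), or 5.10-fold, but the other DARS probe set gave 0.06 (SE 0.15), so it belongs to 1 probe set and not to all of the gene's probes. The sets were also free of overlap in EIF3I and EIF4A3, making 3 of 60 members (background 6.21%).

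EIF2AK2 read 7.86 to 9.44 (mean 8.83) in the high-spike set and 6.72 to 8.44 (mean 7.45) in the low-spike set, a difference of 1.38 (SE 0.26, adjusted p = 0.000703). EIF5B read 8.31 to 10.03 (median 9.62) in the high-spike set and 7.77 to 8.96 (median 8.54) in the low-spike set, a difference of 0.98 (SE 0.21, adjusted p = 0.00183). The other tested EIF5B probe set gave 0.33 (SE 0.15, adjusted p = 0.0838), and EIF2AK2 had 1 probe set. DARS, EIF2AK2 and EIF5B are also the genes with the widest intervals for stress in the fit without the spike-in set. EIF1AX, the factor that works with EIF1 during scanning, read 10.43 to 11.47 (median 11.17) in the high-spike set and 9.89 to 10.64 (median 10.35) in the low-spike set. Its difference was 0.79 (SE 0.16, adjusted p = 0.00126), and its second probe set gave 1.09.

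The called members were then counted by role. Of the 7 elongation genes 4 were lower in the high-spike set, EIF5A by -0.43, EEF1D by -0.40, EEF1B2 by -0.30 and EEF1AKMT1 by -0.28, and 0 were higher (background 24.2% lower). With quantile normalization 2 were lower (background 26.7%) and with centring 7 (background 39.5%), again with 0 higher. The elongation factor 1 alpha controls gave -0.20, -0.21 and -0.26 for the 3′, middle and 5′ probe sets, of which the 5′ one was past the threshold (adjusted p = 0.0272, against 0.0632 and 0.0734). Of the 13 cytosolic synthetases 4 were higher, DARS, NARS at 0.66, LARS at 0.53 and RARS at 0.46, and 3 were lower, WARS at -0.40, HARS at -0.31 and MARS at -0.24. None of the 5 mitochondrial synthetases tested was called. All these counts rest on the brightest probe set of each gene. For GARS, not among those called, a dimmer probe set read 6.46 to 7.82 in the high-spike set and 4.71 to 6.22 in the low-spike set. For HARS, counted as lower, a dimmer probe set read 5.57 to 6.95 in the high-spike set and 4.62 to 6.29 in the low-spike set.

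Of the 9 eIF3 subunits, EIF3E at 0.57 and EIF3A at 0.43 were higher in the high-spike set, and EIF3I at -0.61 and EIF3K at -0.52 were lower. Of the cap and scanning factors EIF4G3 at 0.76, EIF4E at 0.54 and EIF4G2 at 0.22 were higher. EIF4E2 at -0.41 and EIF4A3, counted here by its symbol, at -0.40 were lower. Of the other initiation factors EIF5B, EIF1AX and EIF2A at 0.71 were higher, and EIF6, which keeps the large ribosomal subunit apart, at -0.52 and EIF1 at -0.31 were lower. Of eIF2 and eIF2B, EIF2S2 at 0.51 was higher and EIF2B2 at -0.23 lower. So subunits of the same complex, such as EIF3E and EIF3I, moved in opposite directions between the sets. These directions are those of the brightest probe sets. A dimmer probe set of EIF3M, a subunit not called here, read 8.04 to 9.57 in the high-spike set and 7.01 to 8.06 in the low-spike set.

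**Figure D3:**
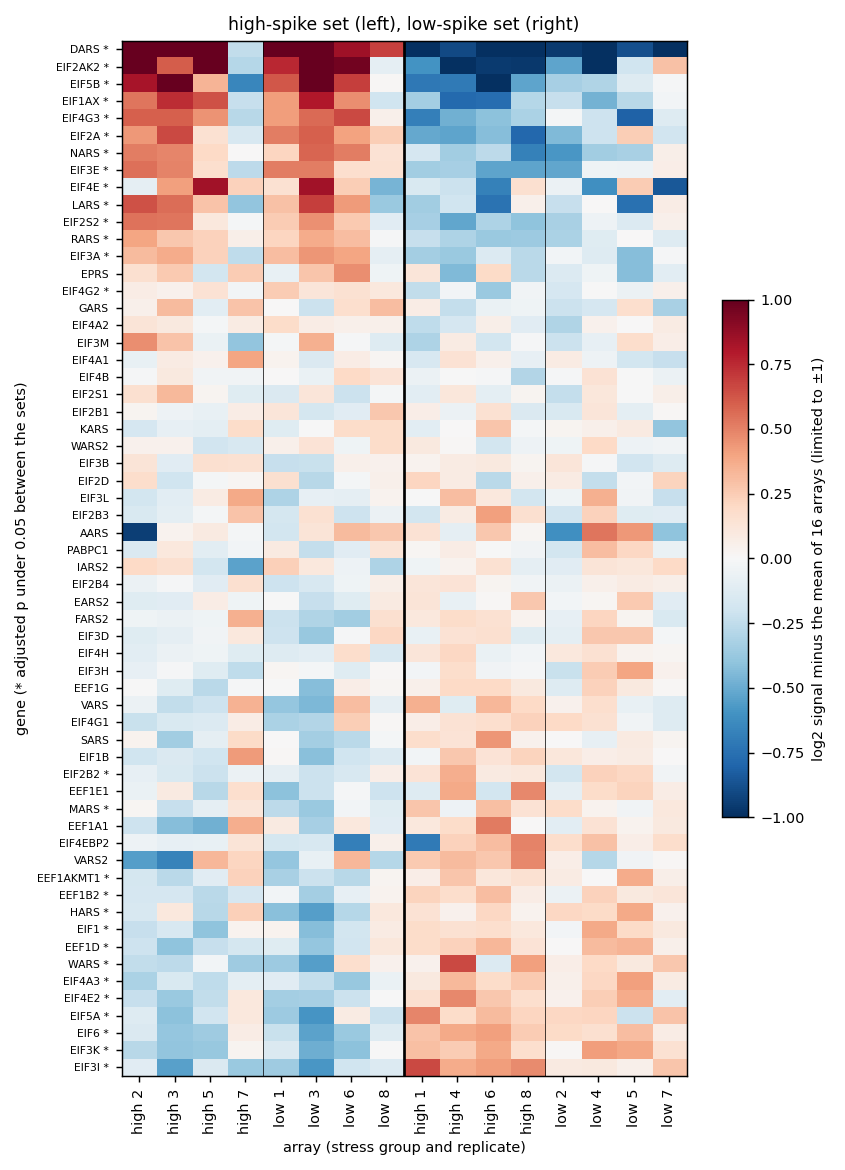
Log2 signal minus the gene's mean over 16 arrays (colour, log2 units, limited to ±1) for the 60 translation genes (rows, sorted by the difference between sets) in each array (columns, high-spike set left of the thick line, and within each set high stress left of low stress). The rows at the top are red in most high-spike arrays and blue in most low-spike arrays. The rows at the bottom are the reverse.

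Within the high-spike set 2 arrays lay between the sets. The mean of the 14 members that were higher in that set, minus the mean of the 14 that were lower, was -1.59 in high stress replicate 7 and -1.41 in low stress replicate 8. It was -0.78 to -0.27 in the other 6 high-spike arrays and -2.27 to -1.66 in the low-spike arrays. The genes were chosen by this contrast, so the gap between sets is a description only. Without those 2 arrays 14 members were higher (background 17.9%) and 18 lower (background 28.3%) in the high-spike set. Both came from animals whose number begins with 8, as no other high-spike array did. Their dap signals of 4826 and 3778 were the highest of the set. What the digit marks is not in the labels, and its part in these values was not tested.

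**Figure D4:**
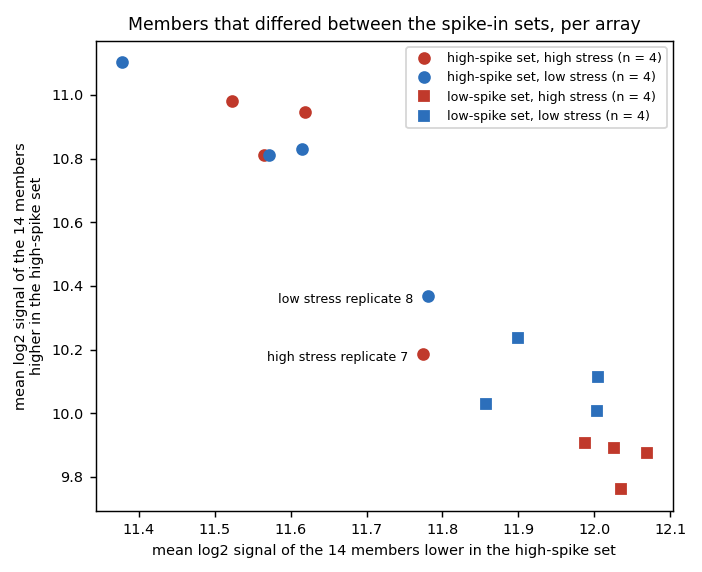
Mean log2 signal of the 14 translation genes higher in the high-spike set (vertical axis) against that of the 14 lower ones (horizontal axis), one point per array; circles are the high-spike and squares the low-spike set, red high stress and blue low stress. The sets separate along a falling diagonal by construction, with high stress replicate 7 and low stress replicate 8 between them.

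Covariation was measured within each set, over 8 arrays, because a pooled correlation would mostly restate the sets. Over the 1770 pairs of members the mean Pearson correlation was 0.02 in the high-spike set and 0.06 in the low-spike set, against 0.01 and 0.00 over all pairs of genes. With each array centred on its median these means were 0.13 and 0.29 for the members, against 0.07 and 0.11 for all genes, so the mean depends on the scaling. As deposited, their mean absolute correlation was 0.457 in the high-spike set and 0.340 in the low-spike set, against 0.368 and 0.324 over all genes, and 10.5% and 5.71% of their pairs were above 0.7, against 5.62% and 3.20%. These are descriptions, since pairs share arrays and genes.

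Inside the high-spike set the correlation followed the same division as between the sets. The 14 set-higher members had a mean correlation of 0.72 among themselves, the 14 set-lower members 0.49, and the mean between the groups was -0.56. In the low-spike set these were 0.26, 0.19 and -0.16. The high-spike values rested partly on high stress replicate 7 and low stress replicate 8, since without them they were 0.30, 0.27 and -0.23, with a mean absolute correlation of 0.390 over all members against 0.384 over all genes. With all arrays kept and the mean of each stress group removed, the high-spike values were 0.74, 0.54 and -0.59. The low-spike values were then 0.06, 0.12 and -0.01, so the division there was close to absent. Both groups of members were chosen by the contrast between the sets on these same arrays. No matching values are given for all genes higher or lower in the high-spike set. The division is therefore not shown to be particular to translation genes.

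Some pairs kept their correlation in both sets. Above 0.8 in both were 2 pairs (0.113% of member pairs, against 0.0773% of all gene pairs): EIF3A with EIF4G3, at 0.97 in the high-spike and 0.90 in the low-spike set, and EIF3K with EIF1, at 0.87 and 0.89. Below -0.8 in both were EIF2AK2 with FARS2 and EIF1AX with EIF6 (0.113%, against 0.0488%). Of the 1770 pairs 64.6% had the same sign in both sets, against 54.5% of all gene pairs.

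For complexes with fixed composition 4 pairs were tested in each set, giving 8 exact permutation tests. EEF1B2 and EEF1G, subunits of the same exchange factor, correlated at r = 0.85 in the high-spike set (exact permutation p = 0.00397, adjusted 0.0291; rho = 0.76, exact permutation p = 0.0368, adjusted 0.0980) and at r = 0.79 in the low-spike set (exact permutation p = 0.0185, adjusted 0.0371; rho = 0.64, exact permutation p = 0.0962, adjusted 0.154). Without the 2 arrays farthest from the median of EEF1B2, r was 0.79 and 0.43. EEF1B2 and EEF1D correlated at 0.80 (adjusted exact permutation p = 0.0371; rho = 0.83, adjusted 0.0980) and 0.71 (adjusted p = 0.0778; rho = 0.57, adjusted 0.173), and at 0.46 and 0.28 without 2 arrays. EEF1D and EEF1G correlated at 0.62 (adjusted exact permutation p = 0.127; rho = 0.67, adjusted 0.154) and 0.84 (adjusted p = 0.0291; rho = 0.76, adjusted 0.0980), and at 0.87 and 0.53 without 2 arrays. The low-spike correlations and that of EEF1B2 with EEF1D were thus lower without 2 arrays. Leaving out the arrays farthest from a gene's median also narrows its range. The fall therefore cannot show whether a few arrays carried these correlations. No rank correlation had an adjusted p under 0.05. These pair tests used the deposited scale only. The mean correlation of the elongation genes depended on the scaling, as given below. How far a scale shared by the genes of an array entered the pair correlations was not tested.

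The eIF2 subunits EIF2S1 and EIF2S2 correlated at 0.62 in the high-spike set and 0.24 in the low-spike set (adjusted exact permutation p = 0.127 and 0.568), with rho of 0.57 and 0.048 (adjusted 0.173 and 0.935). The 7 elongation genes had a mean correlation of 0.40 in the high-spike and 0.20 in the low-spike set. With quantile normalization it was 0.079 and 0.041, and with median centring 0.56 and 0.52. For ATF4 and its reported synthetase targets the sign differed between the sets: the median correlation over the 8 measured targets was -0.09 in the high-spike and 0.18 in the low-spike set, against 0.23 and -0.28 over the 5 other cytosolic synthetases. Over all genes the median correlation with ATF4 was 0.14 and 0.01. These medians are descriptions over 8 arrays per set.

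EIF1AY and EIF1AX encode nearly identical forms of the scanning factor eIF1A, and in humans their genes lie on the Y and X chromosomes. EIF1AY was either bright or near background. It read 10.28, 9.97, 9.25 and 9.54 in high stress replicates 2, 3, 6 and 8, and 9.75, 10.60, 9.76 and 9.79 in low stress replicates 2, 3, 5 and 8. The other 8 animals, 4 in each stress group, were at 4.86 or below, under the filter of 6.15. Because its mean of 5.85 was under the filter EIF1AY was not tested, and the labels give no sex against which to set the values.

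EIF1AX showed no such gap, and ran from 9.89 to 11.47 over the 16 arrays. The animals bright for EIF1AY had EIF1AX levels of 11.20, 11.41, 9.91 and 10.38 in high stress replicates 2, 3, 6 and 8, and of 10.44, 11.47, 10.39 and 10.47 in low stress replicates 2, 3, 5 and 8. The levels above 11 among these were in high-spike arrays, and EIF1AX differed between the spike-in sets as given above. Its stress difference was -0.12 (SE 0.25).

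**Figure D5:**
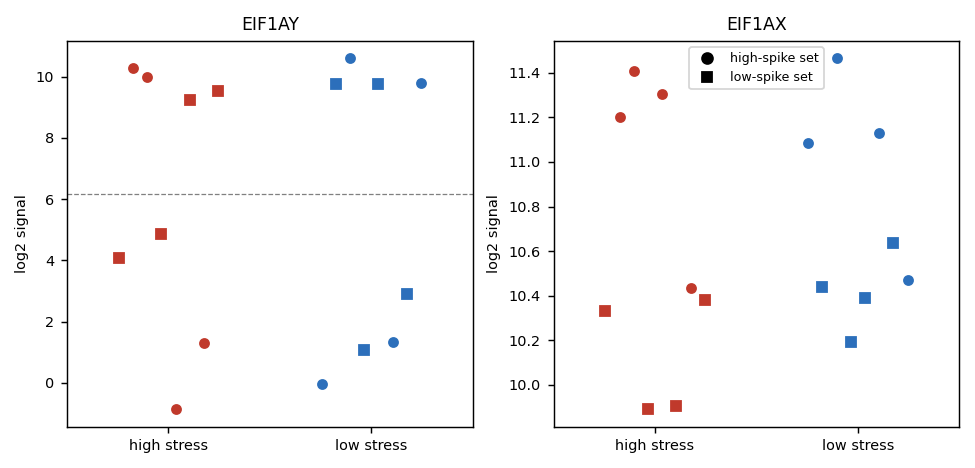
Log2 signal of EIF1AY (left) and EIF1AX (right) in each animal, high stress left of low stress; circles are high-spike and squares low-spike arrays, and the dashed line is the filter of 6.15 log2. EIF1AY forms a cluster above 9 and one below 5 in both stress groups, while EIF1AX lies between 9.89 and 11.47.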

How the data were processed

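The authors deposited linear MAS5 intensity values. The submitters' processing notes name Affymetrix Expression Console 1.1.1 for them. The mean without the top and bottom 2% was about 500 on every array. The table had 1 column per animal, and no columns were identical. Values were taken to log2. Of 24123 probe sets, 124 controls were set aside; of the 23999 kept, 10069 had 1 symbol in the platform annotation, 198 several and 13732 none. Symbols are the annotation's, some of them old (DARS, SARS), and 9961 matched the reference gene table. Genes known only through probe sets with several symbols were not used.

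Probe sets under the 40th percentile of mean log2 signal (6.15, a signal of 71.1) were left out, keeping 14399. Differences were fitted in R 4.3.3 by limma 3.58.1 (lmFit, then eBayes, two-sided), Benjamini-Hochberg adjusted over all 14399. The scripts were tested on simulated data. Precision is limited by the 8 animals per group, assumed to be separate pigs by their numbers. The spike-in sets were found from the largest gap in the dap control signal, and are not in the labels. Fixed pairs were tested by exact permutation within each set.

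The members, gene lists, tests and the spike-in sets were chosen with earlier results of these data known. Members named are the 6 of smallest p either way, the 8 brightest, the 4 with the largest difference between sets, each measured eIF2 subunit, eIF2 kinase, eIF4E, 4E-binding protein and eEF1 subunit, and any behind a count of 5 or fewer; of other genes, the 3 with the smallest p per list. Alternatives were the filter, quantile normalization, median centring, a pseudocount of 23.5, an intensity trend, array weights, blocks, probe set averaging and leaving out each animal. The combined block fits, the elongation factor controls and the fit without 2 arrays were added after seeing the data. Single animals standing apart were found by Dixon's ratio above 0.526. Python 3.11.15 and matplotlib 3.10.9 were used.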

Additional observations from a re-analysis of the deposited data

Results flagged for a closer look

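In 124 groups of 8 values (62 genes in each stress group), 3 held an animal standing apart by Dixon's ratio, where chance would give about 6.2 (1 in 20). AARS, the alanyl-tRNA synthetase, read 11.19 in high stress replicate 2, against 12.05 to 12.40 in the other 7 high stress animals. EIF4A2 read 13.61 in low stress replicate 2, against 13.91 to 14.10 in the other low stress animals. EIF4B read 12.52 in high stress replicate 8, against 12.75 to 12.91 in the other high stress animals.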

How the results depend on the processing

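No member was called for stress under any of the alternatives run, leave-one-out fits included (0 to 0 members and 0 to 0 probe sets called). Over all probe sets 1 was called with the spike-in set as a block, 1 with the block and quantile normalization, and 2 with the block and median centring. Members at an unadjusted p under 0.05 numbered 1 with no filter (3.12% of all genes), 1 with median centring (EIF3B; 3.28%), 1 with the block (6.2%), 5 in the low-spike set only (6.45%), 2 with the block and quantile normalization (6.01%) and 4 with the block and median centring (8.6%), and 0 to 1 with each animal left out (1 without low stress replicate 4; 3.46%). The counts of 5, 2 and 4 are 8.33%, 3.33% and 6.67% of the members. Their median difference was 0.088 with median centring, with or without the block, as centring moved the median of all genes to 0.07, and -0.01 to 0.04 with each animal left out, when 29 to 38 members were higher. The mean correlation within sets was 0.21 with median centring, against 0.04 as deposited. No paired analysis was possible because replicate numbers only name the animals; blocking on the leading digit of the animals' numbers gave 0 calls. Some differences changed sign, those of EIF2A (-0.29), DARS (-0.20) and EIF1AX (-0.12) among them. In the high-spike set only, EEF1A1 was -0.12, EEF1B2 -0.092, EEF1G -0.017, EIF1AX 0.049 and EIF2S2 0.077; in the low-spike set only, EEF1D was 0.045, EIF2S1 -0.00047 and EIF4EBP2 -0.097. With median centring, with or without the block, EEF1D was 0.041, EIF1 0.034, EIF4A2 0.027 and PABPC1 0.042; with quantile normalization, with or without the block, EIF3K was -0.014; with array weights EEF1B2 was -0.0055. Averaged over its probe sets EIF2A was 0.079, EIF4E2 -0.049 and EEF1A1 -0.012, and by the array controls EEF1A1 was -0.032, -0.077 and -0.013. With each animal left out, DARS ran from -0.47 to 0.069, EEF1A1 from -0.056 to 0.087, EEF1B2 from -0.047 to 0.041, EEF1D from -0.089 to 0.023, EEF1G from -0.024 to 0.076, EIF1 from -0.10 to 0.016, EIF3K from -0.048 to 0.082, EIF4EBP2 from -0.029 to 0.17 and PABPC1 from -0.068 to 0.011. The cause was not tested.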
